A study of Sus scrofa with 3 samples.

Results

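ssc-miR-26a was the only porcine mature miRNA with the number 26 in its name, 1 of the 276 porcine mature names listed in the psoas major muscle of growing pigs. Members were chosen by name: a row counted if its miRNA name, without the suffix that describes how the read differs from the known sequence, was a porcine miR-26 of any letter or arm. Small RNA was sequenced from psoas major of castrated male Landrace × Large White × Duroc pigs aged 63, 98 or 161 d. The RNA of several pigs was pooled for each age, so each age had 1 library, no replicates existed and variation between pigs was not measured. The labels give no treatment, and the ages were the only groups. The files listed 263, 268 and 265 porcine mature names at 63, 98 and 161 d, and ssc-miR-26a was present in each. They held 1464699, 2418187 and 2242716 reads, so a count of 0 allowed at most 2.05, 1.24 and 1.34 reads per 1000000 reads of the file (RPM).

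A mature miRNA is cut from 1 arm of a folded hairpin and guides repression of messenger RNAs that pair with its seed, the stretch from base 2 to base 8. The miR-26 family is encoded in introns of the CTDSP genes, which code for small C-terminal domain phosphatases. In muscle cells miR-26a is known for repressing EZH2, a histone methyltransferase that holds back the myogenic programme, and for rising as myoblasts differentiate.

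The mature sequences are shown because they give the bases at which the family members differ. They are written 5′ to 3′ as DNA letters, with the seed in capitals.

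ssc-miR-26a: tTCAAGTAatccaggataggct

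bta-miR-26b: tTCAAGTAattcaggataggtt

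Second miR-26a locus in the pig genome: tTCAAGTAacccaggataggct

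The 3 sequences had the same seed and were 22 nt long. Counted from 1 at the 5′ end of ssc-miR-26a, miR-26b differed by C11T and C21T, and the second locus by T10C. miR-26b was listed under its bovine name. The most frequent read of ssc-miR-26a, called the representative read, was identical to the known porcine sequence in all 3 libraries. Of the 261, 265 and 264 porcine names with a read at the counted hairpin, 131, 134 and 125 had a representative read identical to the known sequence.

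The hairpin of ssc-miR-26a is shown because its opposite arm was also sequenced. It is 84 nt long, and the capitals mark the mature miRNA on its 5′ arm.

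Hairpin of ssc-miR-26a: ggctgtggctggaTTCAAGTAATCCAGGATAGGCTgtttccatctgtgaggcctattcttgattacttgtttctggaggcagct

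The files placed it on the plus strand, from 40640 to 40723, of a genome sequence that they do not name as a chromosome, and they do not name the build. The folding energy listed was -42.2 kcal per mol. In the gene names of RefSeq assembly Sscrofa11.1, MIR26A is on chromosome 5 and lies within the span of CTDSP2, 1 of the phosphatase genes named above.

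The library of 63 d held 52044 reads of ssc-miR-26a, that of 98 d held 140855 and that of 161 d held 103165, all isoforms of the arm included. The unit is an expected count, because the pipeline divided a read that mapped to several hairpins between them. For each miRNA the reads at 1 hairpin were counted, which left ssc-miR-26a whole but took only part of the reads of the 38 names listed at several hairpins. Shares are therefore given both ways.

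With 1 hairpin per miRNA, ssc-miR-26a held 6.14% of porcine mature reads at 63 d (95% Wilson interval 6.09 to 6.19). At 98 d the share was 9.19% (9.15 to 9.24). At 161 d it was 7.50% (7.46 to 7.55). The library of 98 d was the highest and that of 63 d the lowest, and the counting intervals did not overlap.

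With all hairpins summed the shares were 3.94%, 6.40% and 5.04% at 63, 98 and 161 d, in the same order of ages. At 63 d the denominator went from 847811 to 1320137 reads, and ssc-miR-133a-3p, a muscle-specific miRNA at 2 hairpins, alone went from 304184 to 633747. As RPM over everything in the file, ssc-miR-26a had 35532, 58248 and 46000. All intervals cover counting error only, since no age had a replicate library and variation between pigs was not measured. The reads carried no molecular identifiers, so copies of the same molecule could not be told apart. The intervals may therefore be too narrow even for counting error. In a bulk sample, more cells with the miRNA and more miRNA per cell cannot be told apart.

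**Figure D1:**
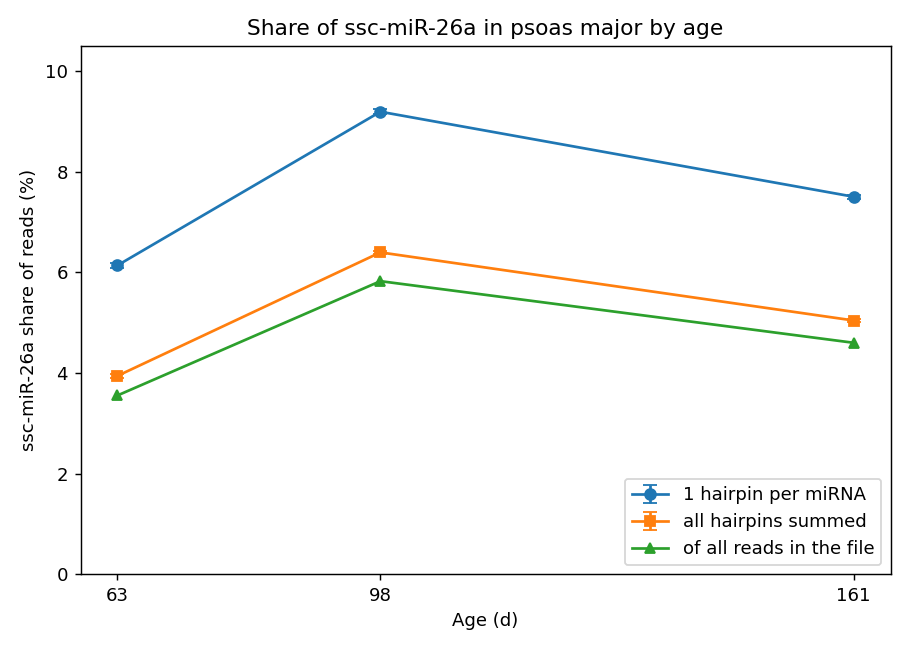
Share of reads that were ssc-miR-26a (y axis, %) against age (x axis, d), with 1 library per age; bars are 95% Wilson intervals for 2 of the 3 lines. All 3 denominators put 98 d highest, at 9.19%, 6.40% and 5.82%, and 63 d lowest.

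The first comparison asked how the share changed from 63 to 98 d. It was 1.50 times as high at 98 d (95% exact conditional binomial interval 1.48 to 1.51, 0.58 on the log2 scale). With a 2-fold limit and at least 10 reads in both libraries, 13.1% of 221 names were past the limit, 6.79% upward and 6.33% downward, and ssc-miR-26a was not among them. Of these names 55 had a higher ratio than ssc-miR-26a and 165 a lower one, and the median ratio was 1.11. Scaled by the trimmed mean of M values (TMM) or by DESeq2 size factors, which centre on the typical miRNA, the ratio was 1.33 and 1.34.

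From 98 to 161 d the share was 0.816 times as high (0.810 to 0.823, or -0.29 on the log2 scale). This was close to the median of 0.842 over 229 names, 11.4% of which were past 2-fold, 2.62% upward and 8.73% downward. A higher ratio than that of ssc-miR-26a was found for 126 names and a lower one for 102. With TMM and DESeq2 size factors the ratio was 0.974 and 0.982, so that, relative to the typical miRNA, little of the difference was left. These scalings shifted every log2 ratio by 0.26 and 0.27 in this pair, and by -0.17 from 63 to 98 d.

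Between 63 and 161 d the ratio was 1.22 (1.21 to 1.24, 0.29 on the log2 scale), against a median of 0.924 over 222 names. In this pair 19.8% of names were past 2-fold, 5.86% upward and 14.0% downward, and 66 had a higher ratio than ssc-miR-26a. Among the 56 names with at least 1000 reads in both libraries, 16 had a higher ratio.

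**Figure D2:**
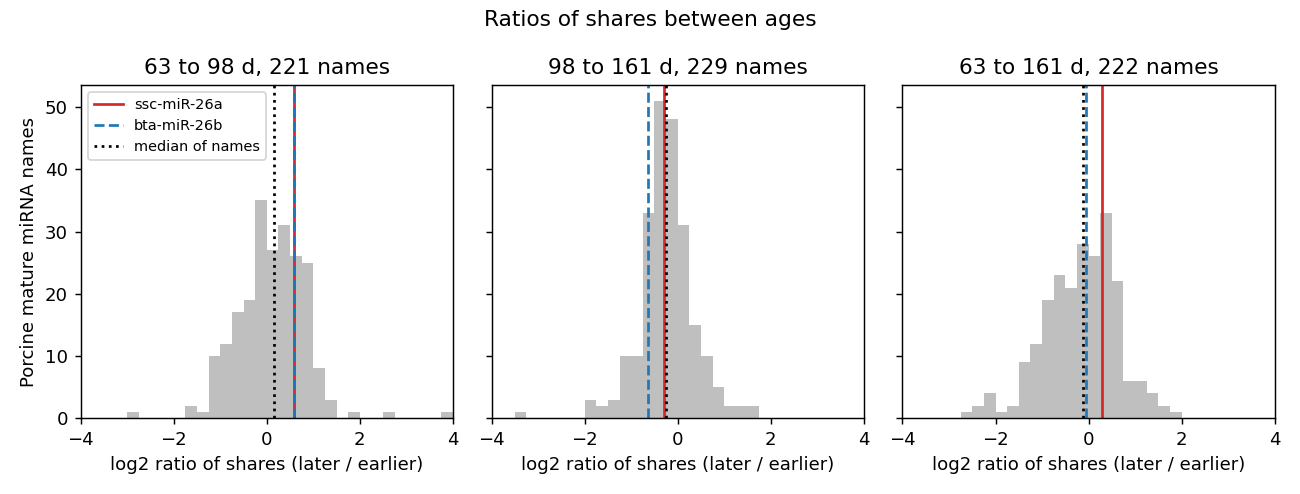
Number of porcine mature names (y axis) by log2 ratio of shares between ages (x axis), for the 3 pairs of ages; lines mark ssc-miR-26a, miR-26b and the median of names. ssc-miR-26a lay above the median in the pairs that start at 63 d and next to it from 98 to 161 d, at -0.29 against -0.25; a few names lie outside the axis.

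Among porcine mature names ssc-miR-26a was in rank 3 at 63 d and rank 2 at 98 and 161 d. At 63 d ssc-miR-133a-3p with 35.9% and ssc-miR-486, a miRNA abundant in muscle and red blood cells, with 6.77% were above it. Below it came ssc-miR-10b with 4.60%, ssc-miR-378 with 4.15% and ssc-let-7a with 3.66%. No counting interval of these neighbours overlapped that of ssc-miR-26a.

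At 98 d only ssc-miR-133a-3p, with 27.4%, was above ssc-miR-26a. The names below were ssc-miR-10b with 7.05%, ssc-miR-486 with 6.10% and ssc-miR-1, another muscle-specific miRNA, with 4.99%. At 161 d ssc-miR-133a-3p had 34.5%, and the names below were ssc-miR-486 with 6.67%, ssc-miR-10b with 6.66% and ssc-miR-143-3p with 4.32%. The intervals of ssc-miR-486 and ssc-miR-10b overlapped each other at 161 d, and neither reached ssc-miR-26a.

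The rank at 63 d depended on the counting. With all hairpins summed ssc-miR-26a was in rank 5, after ssc-miR-133a-3p, ssc-miR-378 with 5.43%, ssc-let-7a with 4.70% and ssc-miR-486 with 4.35%, while it stayed in rank 2 at 98 and 161 d. Reads of ssc-miR-133a-3p at 1 hairpin outnumbered those of ssc-miR-26a 5.84 times at 63 d, 2.98 times at 98 d and 4.60 times at 161 d. With both hairpins summed these ratios were 12.2, 6.21 and 9.56.

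Reads without a mapping error numbered 42016, 121058 and 86864 at 63, 98 and 161 d, and reads with an error 10028, 19797 and 16301. The share without error at 63 d was 80.7% (80.4 to 81.1). It was 85.9% (85.8 to 86.1) in the library of 98 d and 84.2% (84.0 to 84.4) in that of 161 d. The library of 63 d was the lowest, by more than the counting error. The other porcine names pooled had 83.9%, 81.3% and 82.4%, so ssc-miR-26a was below them at 63 d and above them at 98 and 161 d.

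Over the 56 names with at least 1000 reads in every library the median share without error was 85.9%, 86.2% and 85.6%, and 36, 28 and 31 of them were higher than ssc-miR-26a. The 22-nt representative read made up 70.7% of ssc-miR-26a reads in the library of 63 d (70.3 to 71.1), 76.0% in that of 98 d (75.8 to 76.2) and 74.5% in that of 161 d (74.2 to 74.7). Among error-free reads its share was 87.6%, 88.5% and 88.4%. With reads without error alone, the ratio of shares from 63 to 98 d was 1.63 in place of 1.50.

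**Figure D3:**
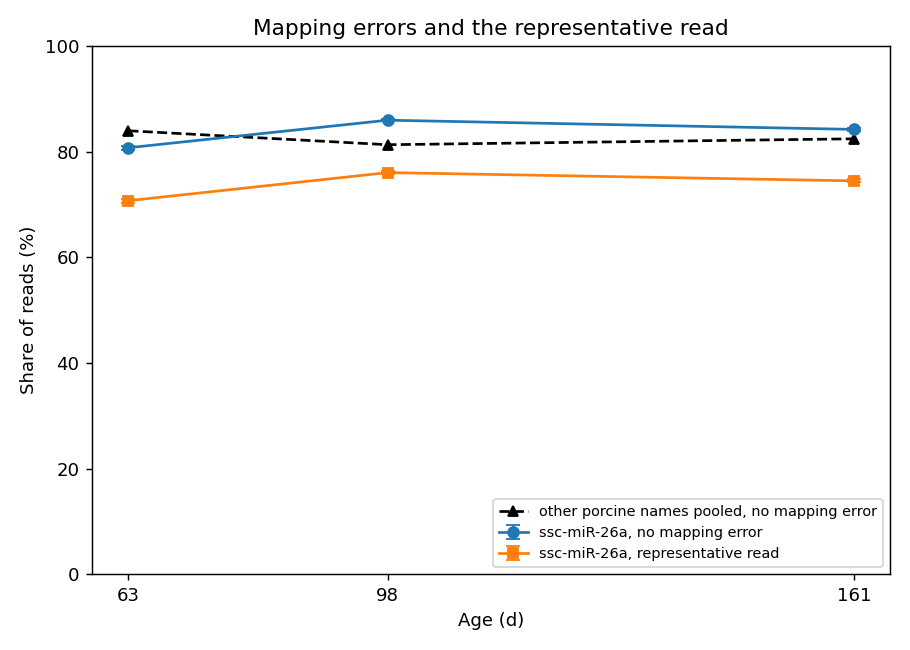
Share of reads (y axis, %) against age (x axis, d) for ssc-miR-26a reads without mapping error, for its representative read, and for all other porcine names pooled without mapping error; bars are 95% Wilson intervals. Both lines of ssc-miR-26a were lowest at 63 d, at 80.7% and 70.7%, while the pooled names were highest there, at 83.9%.

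The opposite arm of the ssc-miR-26a hairpin was listed under a murine name, mmu-miR-26a-2-3p, from which its read differed by G4A. It is shown to set the rare arm against the abundant one, with bases 2 to 8 in capitals.

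3′ arm of the ssc-miR-26a hairpin: cCTATTCTtgattacttgtttc

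Its reads numbered 6, 25 and 21 in the libraries of 63, 98 and 161 d. The 3′ arm thus held 0.0115% of the reads of the hairpin in the library of 63 d (0.00528 to 0.0251), 0.0177% in that of 98 d (0.0120 to 0.0262) and 0.0204% in that of 161 d (0.0133 to 0.0311). These intervals overlapped, and no difference between ages was detectable at this depth. Among the 65, 94 and 78 hairpins of this mapping class with reads on both arms and at least 1000 reads, the median share of the rarer arm was 0.411%, 0.587% and 0.525%. Of these hairpins 2, 3 and 1 had a lower share than that of ssc-miR-26a. Hairpins without a read on the rarer arm, whose share is lower still, were not among those compared.

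miR-26b, which shares the seed and is encoded by another hairpin, was sequenced 7812, 21320 and 12237 times in the libraries of 63, 98 and 161 d. There were 6.66 reads of ssc-miR-26a per read of miR-26b in the library of 63 d (6.51 to 6.82), 6.61 in that of 98 d (6.51 to 6.70) and 8.43 in that of 161 d (8.27 to 8.59). The ratio at 161 d was higher than at the other ages by more than counting error, and the intervals of 63 and 98 d overlapped.

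Per 100 porcine mature reads miR-26b stood at 0.921, 1.39 and 0.890 at 63, 98 and 161 d, or at 0.592, 0.968 and 0.598 with all hairpins summed in the denominator. Its ratio from 63 to 161 d was 0.966 (0.939 to 0.994) in the first counting and 1.01 (0.982 to 1.04) in the second, so its direction over the whole period depended on the counting. From 63 to 98 d its ratio of 1.51 (1.47 to 1.55) was near the 1.50 of ssc-miR-26a. From 98 to 161 d it was 0.640 (0.625 to 0.654), against 0.816. The change of ssc-miR-26a divided by that of miR-26b was 0.992 (0.964 to 1.02) in the first pair and 1.28 (1.25 to 1.31) in the second, and these 2 values do not depend on the scaling of the libraries. The share of reads without error was 88.4%, 89.4% and 89.4% for miR-26b. Its 3′ arm, under the human name hsa-miR-26b-3p, had 18, 20 and 14 reads.

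Reads listed at the second miR-26a locus were few. The files placed it on the minus strand of a sequence whose 12 porcine hairpins matched by name are all on chromosome 13 in Sscrofa11.1. Known names put its hairpin at 24885242 to 24885331, and the row of a predicted candidate put the same stretch in a hairpin at 24885289 to 24885357, so the positions in the files do not agree. Rows under known names had 1, 7 and 2 reads at 63, 98 and 161 d.

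The predicted candidate was counted 27, 61 and 96 times in the libraries of 63, 98 and 161 d, none of them without a mapping error. Its representative read is shown because it carries T10C against ssc-miR-26a at every age.

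Predicted candidate at 63 and 98 d: tTCAAGTAacccaggataggctt

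Predicted candidate at 161 d: tTCAAGTAacccaggttaggct

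Against its own hairpin the read differed by G23T at 63 and 98 d and by A16T at 161 d. Per 100 reads of ssc-miR-26a there were 0.0519 candidate reads in the library of 63 d (0.0357 to 0.0755), 0.0433 in that of 98 d (0.0337 to 0.0556) and 0.0931 in that of 161 d (0.0762 to 0.114). The value of 161 d was the highest, and its interval did not overlap the others, but it belongs to another representative read than those of 63 and 98 d. Whether these reads came from the second locus or from ssc-miR-26a reads with a changed base was not tested.

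All rows of the family together had 59925, 162322 and 115552 reads, and ssc-miR-26a made up 86.8%, 86.8% and 89.3% of them. Of the reads whose row carried the exact seed at bases 2 to 8, ssc-miR-26a held 86.9%, 86.8% and 89.3%. The seed as a whole had 40885, 67091 and 51500 RPM of the file at 63, 98 and 161 d.

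**Figure D4:**
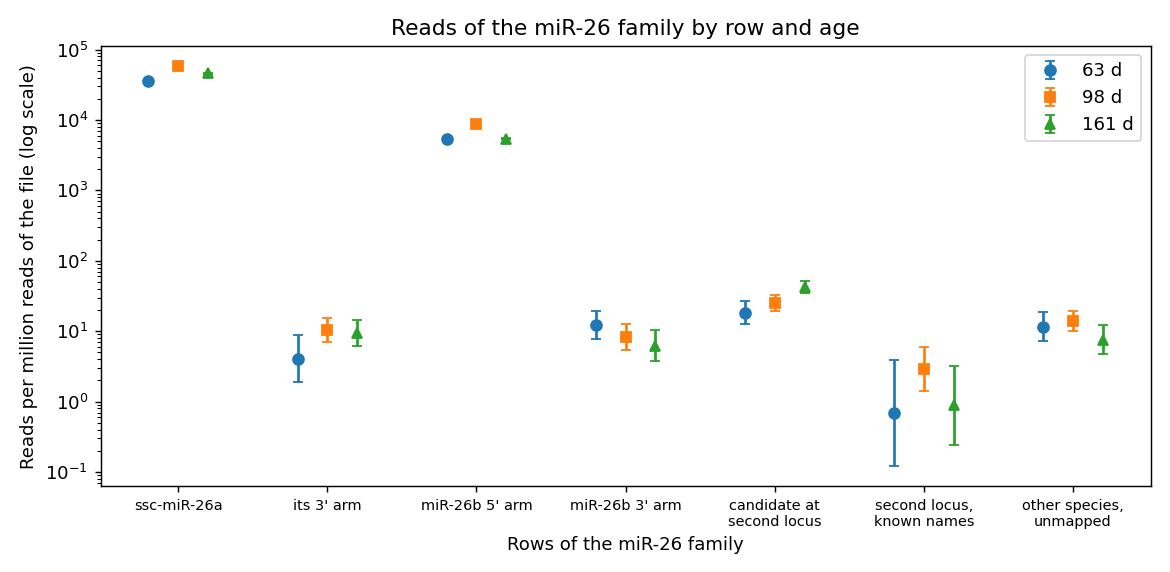
RPM of the file (y axis, log scale) for 7 groups of rows of the miR-26 family (x axis) at 63, 98 and 161 d, with 95% Wilson intervals. ssc-miR-26a at 35532 to 58248 and the 5′ arm of miR-26b at 5334 to 8817 stand far above the other groups, which lie at or below 42.8.

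The pattern across ages was compared with the 55 other porcine names that had at least 1000 reads in each library. Likeness was the Euclidean distance between the 2 log2 ratios of shares, 63 to 98 d and 98 to 161 d, over 3 libraries. ssc-miR-30e-5p was the nearest, at a distance of 0.04, with shares of 2.13%, 3.15% and 2.63%. ssc-miR-451, a miRNA of red blood cells, came next at 0.18, with 0.130%, 0.216% and 0.163%.

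ssc-miR-10b followed at 0.21, ssc-miR-16 at 0.25 and ssc-miR-151-5p at 0.26, against a median distance of 0.64 over the 55 names. As shares, all 5 were highest at 98 d, which followed from how they were chosen. The log2 ratios of ssc-miR-26a were 0.58 and -0.29, so a name within a distance of 0.26 must also rise and then fall. TMM and DESeq2 size factors raised every log2 ratio from 98 to 161 d by 0.26 and 0.27. With either, ssc-miR-10b and ssc-miR-151-5p, whose ratios of shares were 0.945 and 0.889, came out higher at 161 d than at 98 d. ssc-miR-30e-5p, at 0.834, came out about level. The same 5 names were nearest when all hairpins were summed, but this counting could hardly change them. For a name at 1 hairpin the distance to ssc-miR-26a does not depend on the denominator. Of the 5, only ssc-miR-16 was listed at 2 hairpins.

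**Figure D5:**
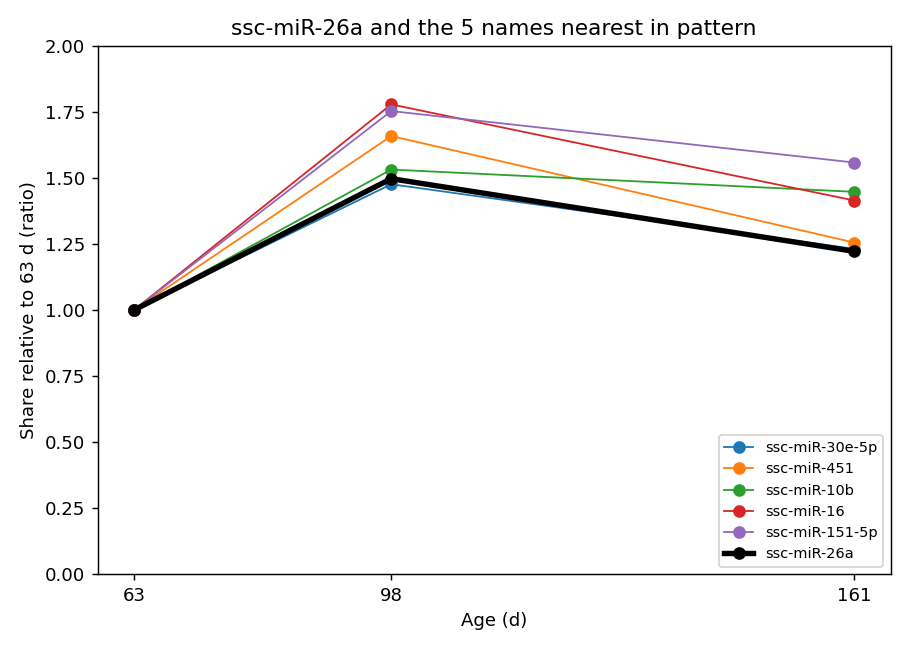
Share relative to 63 d (y axis, ratio) against age (x axis, d) for ssc-miR-26a and the 5 names nearest to it in pattern, 1 library per age. As shares, all 6 lines peak at 98 d, ssc-miR-26a at 1.50, and remain above 1 at 161 d, where ssc-miR-26a is at 1.22. The shared peak follows from how the 5 names were chosen.

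A list of 23 miRNAs known from muscle differentiation was set beside ssc-miR-26a, and 22 of them were in the files. From 63 to 98 d, 1 of the 21 with at least 10 reads in both libraries was past 2-fold upward and 0 downward, near the 6.79% and 6.33% over all names. That one was ssc-miR-1, with 2.14% at 63 d and 4.99% at 98 d. The median ratio of the list was 1.18 against 1.11 for all names, and 5 members had a higher ratio than ssc-miR-26a.

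From 98 to 161 d, 0 of 22 were past 2-fold upward and 1 downward, ssc-miR-503, which had 87 and 34 reads, beside 2.62% and 8.73% over all names. ssc-miR-206, a miRNA of differentiating and slow muscle, had a ratio of 0.502, or 0.485 with all hairpins summed. It was 0.600 with TMM and 0.604 with DESeq2 size factors. The median ratio was 0.889 against 0.842 for all names, and 14 members had a higher ratio than ssc-miR-26a. From 63 to 161 d, 0 of 21 passed the limit in either direction, against 19.8% of all names, and the median ratio was 0.986 against 0.924. The share over all names includes many with few reads. Of the 56 names with at least 1000 reads in both libraries, 2 were past 2-fold upward and 3 downward.

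With 1 hairpin per miRNA, the 6 skeletal muscle markers held 38.8%, 33.5% and 38.7% of porcine mature reads at 63, 98 and 161 d. All were present in every library. This total was mostly ssc-miR-133a-3p, of whose reads this counting took only part, at 63 d 304184 of 633747. With both hairpins summed ssc-miR-133a-3p alone held 39.7% at 98 d and 48.2% at 161 d. The other 5 markers together held 2.97%, 6.12% and 4.21%, highest at 98 d as ssc-miR-26a was. Most of this smaller sum was ssc-miR-1, with 2.14%, 4.99% and 3.47%. From 63 to 98 d the ratio of shares was 0.764 for ssc-miR-133a-3p, against 2.34 for ssc-miR-1, 1.94 for ssc-miR-208b, 1.49 for ssc-miR-499-5p, 1.31 for ssc-miR-206 and 1.11 for ssc-miR-133b, of which ssc-miR-133b alone turned below 1 with TMM (0.988) and DESeq2 size factors (0.992). The values without ssc-miR-133a-3p were added after seeing the data. Both red blood cell markers together were at 0.140%, 0.235% and 0.174%, the endothelial pair at 1.01%, 1.54% and 1.10%, and 3 of the 4 leukocyte markers were found, at 0.189%, 0.235% and 0.161%. As sums, these 3 groups were highest at 98 d, as ssc-miR-26a was. In each pair taken alone, most names went the same way. From 63 to 98 d, 124 of 221 names had a ratio above 1. From 98 to 161 d, 162 of 229 had a ratio at or below 1. Within the leukocyte group ssc-miR-150 went the other way from 63 to 98 d, with a ratio of 0.858. The ratio was 1.31 for ssc-miR-142-3p and 1.55 for ssc-miR-142-5p. The smooth muscle pair was at 1.62%, 1.87% and 4.44%. Its members went opposite ways from 63 to 98 d, ssc-miR-143-3p with a ratio of 1.17 and ssc-miR-145-5p with 0.732. The liver marker ssc-miR-122 had 11, 297 and 12 reads, and the neuronal marker ssc-miR-124a held 0.0139%, 0.0161% and 0.0192%. The part of other cell types in the ssc-miR-26a values was not tested.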

How the data were processed

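Small RNA libraries of psoas major, 1 per age, were prepared with the Illumina TruSeq kit and sequenced on an Illumina HiSeq. Per the labels, the authors processed the reads with ACGT101-miR 4.2. The genome build is not given in the sources used here. The deposited files give the count of copies of each representative read and, without normalization, the expected count of all reads per arm and hairpin, total and split by mapping error. Reads at several hairpins were divided by the authors' pipeline: of 155, 201 and 185 sequences listed at several rows, 89, 115 and 122 had more copies than reads at a row.

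Samples were grouped by title. In the 63 d file 139 rows had no name, and 106 took the name of the row with the same sequence. The other 33 held 0.171% of its reads. Of a name's hairpins, the one present in most libraries was counted, the first in file order if tied. With 1 library per age no test was made. Shares carry Wilson intervals and ratios exact (Clopper-Pearson) intervals at 95%, from expected counts rounded to whole numbers. The interval of the ssc-miR-26a change over the miR-26b change came from Poisson errors on the log scale. Intervals cover counting error only, and those of ratios were tested on simulated data. A name was past the fold at a ratio of at least 2 or at most 0.5 with at least 10 reads in both libraries. Size factors came from edgeR 4.0.16 (TMM) and DESeq2 1.42.0, other values from Python 3.11.15 with scipy 1.17.1.

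Named miRNAs were ssc-miR-26a, rows of its hairpin, family or seed, 3 names on each side in rank, 5 nearest in pattern and the muscle and marker lists. Members and lists were chosen with earlier results of these data known. Alternatives covered the denominator, reads, hairpins, scaling, minimum and pseudocount.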

Additional observations from a re-analysis of the deposited data

Results flagged for a closer look

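Rows outside the porcine mature names had reads above the 3 counts that a count of 0 allows. The predicted candidate at the second miR-26a locus had 27, 61 and 96 reads at 63, 98 and 161 d. Names of miR-26 from other species whose reads were not mapped to the genome had 17, 34 and 17 reads in all. Most of these came from mdo-miR-26-5p, the opossum name, with 14 reads at 63 d and 15 at 161 d in 1 row each.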

How the results depend on the processing

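The direction of the ssc-miR-26a ratio was the same under all 9 alternatives in each pair of ages, and no alternative placed it past 2-fold. Its share at 63, 98 and 161 d was 9.57%, 12.7% and 11.5% without ssc-miR-133a-3p in the denominator, 3.55%, 5.82% and 4.60% of all reads of the file, and 5.92%, 9.67% and 7.65% with reads without mapping error. It was 5.12%, 8.55% and 7.01% with copies of the representative read, 5.92%, 8.95% and 7.28% with the hairpin that had most reads, and 3.94%, 6.40% and 5.04% with all hairpins summed.

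The ratios from 63 to 98 d, 98 to 161 d and 63 to 161 d were 1.32, 0.905 and 1.20 without ssc-miR-133a-3p, 1.64, 0.790 and 1.29 over all reads of the file, and 1.33, 0.974 and 1.30 with TMM. They were 1.34, 0.982 and 1.31 with DESeq2 size factors, 1.63, 0.792 and 1.29 with reads without mapping error, and 1.62, 0.788 and 1.28 with all hairpins summed. With copies of the representative read they were 1.67 from 63 to 98 d and 1.37 from 63 to 161 d. The pseudocount of 1 and the hairpin with most reads left all 3 ratios within their counting intervals, though a pseudocount of 1 can hardly move counts this large. Summing hairpins could not change the shares of reads without error, since ssc-miR-26a was listed at 1 hairpin. The rank at 63 d was 5 with all hairpins summed, 2 with reads without mapping error and 4 with both, the last chosen after seeing the data.

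The number of names past 2-fold depended on the setting. From 63 to 98 d, 15 were up in the main counting, 23 with at least 1 read, 6 with at least 100 reads, 8 with TMM and 8 with DESeq2 size factors, and 14 were down, against 7 with at least 100 reads and 22 with TMM. From 98 to 161 d, 6 were up, against 10, 2, 11 and 12 in the same order of settings, and 20 were down, against 7 with at least 100 reads, 9 with TMM and 9 with DESeq2 size factors. From 63 to 161 d, 13 were up, against 20 with at least 1 read and 6 with at least 100 reads, and 31 were down, against 15 with at least 100 reads. Summing all hairpins, chosen after seeing the data, gave 24 up and 9 down from 63 to 98 d. The cause of these shifts was not tested.

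No paired analysis was possible because each age had 1 library and no test was made. Leaving out a replicate was not possible for the same reason. Depth limits the rare rows: the 3′ arm and the second locus had too few reads to separate the ages, apart from the predicted candidate at 161 d.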
